A study of Homo sapiens with 9 samples.

Results

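ACKR3 and CXCR4 are the receptors of the chemokine CXCL12, and ACKR3 also binds CXCL11. The 4 genes were examined in RNA sequencing libraries of the prostate cancer cell lines LNCaP and PC3, as 4 of the 28216 genes in the deposited table of counts. The set was taken by gene symbol. ACKR3 was selected because it was among the genes with the largest fall under androgen in LNCaP cells, so the androgen response of these 4 genes is given as a description without a test.

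LNCaP (clone FCG) and PC3 are established epithelial lines grown from metastases of prostate cancer, and the labels give both as wild type. All LNCaP cells spent 24 h in phenol red-free RPMI medium with 10% charcoal-stripped serum, which is poor in steroids. They were then treated for 48 h with 10 nM dihydrotestosterone (DHT), here called androgen-treated, or with 0.01% ethanol, here called vehicle-treated. The main text of the study names R1881, a synthetic androgen, where the labels name DHT. PC3 cells had no treatment and grew in F12K medium with 10% serum that was not stripped, so cell line and medium cannot be told apart in any comparison of PC3 with LNCaP. Each of the 3 groups had 3 libraries, and the labels do not say whether these came from separate cultures, so p-values measure only the spread between these libraries.

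Chemokines are small secreted proteins that guide moving cells through receptors with 7 membrane helices, which mostly signal through G proteins of the inhibitory class. CXCR4 is such a signalling receptor for CXCL12, a chemokine made in quantity by stromal cells of bone marrow, and it is much studied in the spread of prostate cancer to bone. ACKR3 (earlier CXCR7) is called an atypical receptor because it recruits arrestins and takes CXCL12 and CXCL11 into the cell without the usual G protein signal. CXCL11 is induced by interferon and has CXCR3 as its classical receptor.

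The libraries held 17397706 to 25640325 reads assigned to genes, and every vehicle-treated library held fewer than any androgen-treated library. Levels below are CPM, read counts scaled to library size with TMM factors over the 9 libraries. A count of 0 allows up to 3 counts, or 0.117 to 0.172 CPM before TMM scaling, and such limits and all counting intervals cover counting error only. The 4 epithelial markers exceeded 3 CPM in every library. The 6 LNCaP markers summed to 9673 to 10039 CPM in androgen-treated cells, 2652 to 2990 CPM in vehicle-treated cells and 28.3 to 42.5 CPM in PC3 cells. The 6 PC3 markers summed to 2563 to 2795 CPM in PC3 cells. They were present in the LNCaP libraries at a median of 0.104% to 0.907% of their PC3 level, the highest in androgen-treated replicate 1.

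The androgen-treated level of CXCR4 and CXCL11 was above the level in both other groups, so the promoters of these 2 genes are shown. RefSeq gives several starts for CXCR4, and the most upstream is shown. The windows are the 250 bases before the start on GRCh38.p14, 5′ to 3′ on the gene's strand, which is the minus strand for both. Capitals mark AGAACA, the hexamer of steroid hormone response elements, and TATAAA, the core of the TATA box, searched on both strands.
CXCR4, chr2:136118150-136118399: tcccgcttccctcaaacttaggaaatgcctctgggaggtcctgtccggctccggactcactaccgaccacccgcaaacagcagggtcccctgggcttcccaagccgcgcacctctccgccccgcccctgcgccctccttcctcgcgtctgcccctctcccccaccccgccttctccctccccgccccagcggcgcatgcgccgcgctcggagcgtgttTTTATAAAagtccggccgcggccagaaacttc
CXCL11, chr4:76036071-76036320: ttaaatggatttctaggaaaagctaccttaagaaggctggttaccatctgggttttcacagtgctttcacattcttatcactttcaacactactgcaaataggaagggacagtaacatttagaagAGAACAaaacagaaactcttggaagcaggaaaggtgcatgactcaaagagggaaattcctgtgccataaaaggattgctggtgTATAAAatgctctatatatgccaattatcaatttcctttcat

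The CXCR4 window held TATAAA on both strands at overlapping positions, 32 and 30 bases before the start, and no AGAACA. The CXCL11 window held AGAACA 125 bases before the start and TATAAA 42 bases before it. Among all 34788 promoter windows of this length, 12.418% held AGAACA and 10.768% held TATAAA, so neither match is rare. A match of this kind is a description of letters and not of a bound site. CXCL12 was also found in the table of promoters, and ACKR3 was not.

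ACKR3 was the most abundant of the 4 genes, and by far in vehicle-treated LNCaP cells. The gene lies at chr2:236567787-236582354 on the plus strand of GRCh38, and its main transcript has 2 exons and 2015 nt, with the whole coding sequence in 1 exon. Vehicle-treated libraries held 2830, 3252 and 3148 ACKR3 counts, or 148, 173 and 156 CPM. Androgen-treated libraries held 133, 199 and 143 counts, or 6.15, 9.76 and 7.10 CPM. PC3 libraries held 46, 24 and 31 counts, or 1.83, 1.08 and 1.22 CPM. The 3 groups did not overlap, with vehicle-treated LNCaP highest and PC3 lowest.

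With androgen, the ACKR3 level was 21.2 times lower, a log2 fold change (log2 change below) of -4.41 (standard error, SE, 0.11, 95% interval -4.66 to -4.16). This placed ACKR3 at rank 5 among the 605 genes that were called lower and had more than 3 CPM in each of the 6 LNCaP libraries, and at rank 22 among all 11697 genes tested. BCHE and DDC lay just inside that limit with log2 changes of -5.05 and -5.02, and MMP16 and ATP1B1 just outside with -4.20 and -3.67. Since ACKR3 was selected on this fall, its rank is no finding. For scale, 14.0% of the genes tested between the LNCaP groups were called, which means at least a 2-fold difference with a Benjamini-Hochberg adjusted p below 0.05. Called higher were 6.54% and called lower 7.49%. In bulk RNA of this kind, fewer cells with a transcript and less transcript per cell cannot be told apart.

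Between the lines, ACKR3 was lower in PC3 cells than in androgen-treated LNCaP cells, by a log2 change of -2.48 (SE 0.26, 95% interval -3.09 to -1.87). It is given without a p-value, because the androgen-treated libraries took part in the selection and ACKR3 reached the filter on low counts (more than 3 CPM in 3 libraries) only through them. The 3 PC3 libraries thus lay below LNCaP cells in which androgen had already lowered the transcript, and the mean PC3 level was 18% of the androgen-treated mean. Of the 12541 genes tested here, 46.0% were called, with 24.0% higher and 22.1% lower in the PC3 line. Against vehicle-treated LNCaP cells, the ACKR3 log2 change was -6.86 (SE 0.17, 95% interval -7.25 to -6.47), likewise without a p-value, since the vehicle-treated libraries took part in the selection. There, 43.2% of 12686 genes were called, 22.2% higher and 21.0% lower. All 3 comparisons share libraries and are not independent of each other. The mean ACKR3 level in PC3 was 0.865% of the vehicle-treated level. The LNCaP markers in PC3 libraries ran from 0% (KLK2) to 1.89% (TMPRSS2 in PC3 replicate 3) of their androgen-treated mean. A part of carry-over from LNCaP libraries was not tested.

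**Figure D1:**
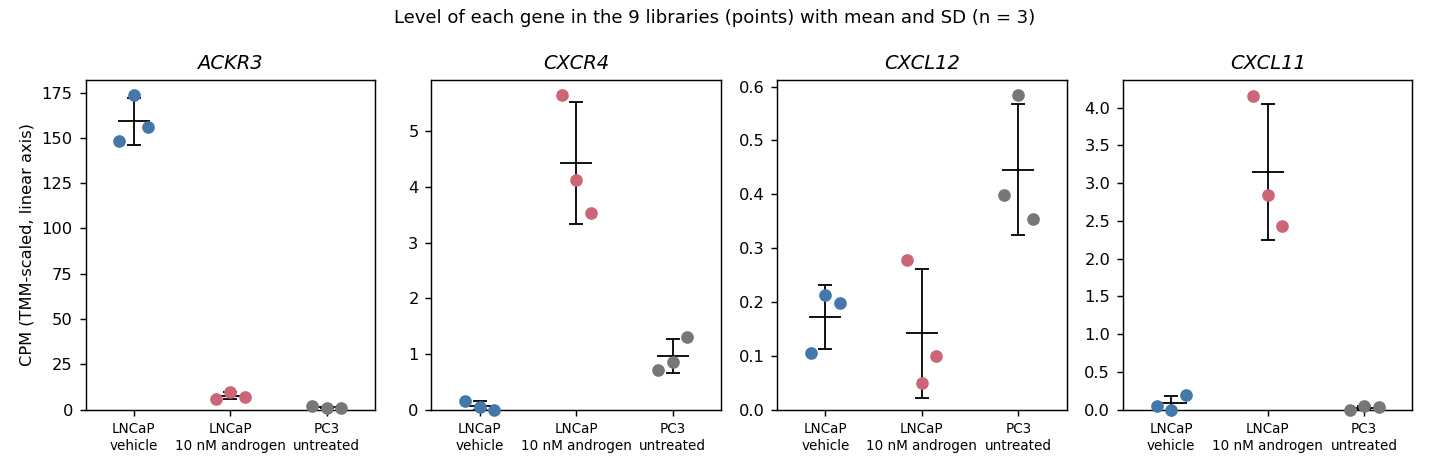
Level of ACKR3, CXCR4, CXCL12 and CXCL11 in CPM on linear axes that differ between panels, with 1 point per library and the mean and SD (n = 3) of each group. ACKR3 is highest in vehicle-treated LNCaP cells (148 to 173 CPM), CXCR4 and CXCL11 in androgen-treated LNCaP cells (3.53 to 5.64 and 2.43 to 4.16 CPM) and CXCL12 in PC3 cells (0.354 to 0.585 CPM).

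CXCR4 had the reverse order within LNCaP cells, and PC3 cells lay between the LNCaP groups. The gene lies at chr2:136114349-136119177 on the minus strand, with 2 exons and 1668 nt in its main transcript. Androgen-treated libraries held 122, 84 and 71 CXCR4 counts, or 5.64, 4.12 and 3.53 CPM. Vehicle-treated libraries held 3, 1 and 0 counts, none above the limit that a count of 0 allows. PC3 libraries held 18, 19 and 33 counts, or 0.718, 0.854 and 1.30 CPM. The groups did not overlap, and the transcript was scarce even where it was highest.

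Summed over libraries, 277 counts with androgen stood against 4 with vehicle, a ratio of 64.6 (95% counting interval 25.0 to 239). The fitted log2 change was 5.86 (SE 0.43). CXCR4 reached the filter on low counts only through the androgen-treated libraries, so the filter favoured a higher level there. Leaving out vehicle-treated replicate 1, which held 3 of the 4 vehicle counts, gave a log2 change of 7.09. In PC3 cells CXCR4 was lower than in androgen-treated LNCaP cells, with a log2 change of -2.21 (SE 0.27, 95% interval -2.85 to -1.57). Here too it reached the filter only through the androgen-treated libraries, which favoured a difference, so no p-value is given. Against vehicle-treated LNCaP cells it was higher in PC3 cells, 70 counts against 4, a ratio of 14.0 (95% counting interval 5.22 to 52.7). CXCR4 did not reach the filter in that last comparison, and a fit without the filter gave a log2 change of 3.68 (SE 0.63). It has no p-value, because the vehicle-treated libraries took part in the selection and CXCR4 was lowest there. The log2 change moved to 4.93 without vehicle-treated replicate 1 and to 3.10 without vehicle-treated replicate 3. Without the filter, 41.0% of the genes fitted between PC3 and vehicle-treated LNCaP cells were called.

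Because the receptors differ in length, their levels were compared as CPM per kb of main transcript. In vehicle-treated LNCaP cells ACKR3 stood at 79.0 ± 6.43 CPM per kb (SD, n = 3) and CXCR4 at 0.042 ± 0.048 (SD, n = 3). The ratio of ACKR3 to CXCR4 was 781 in replicate 1 and 2692 in replicate 2, which rest on 3 counts and 1 count of CXCR4, and replicate 3 had none. In androgen-treated cells ACKR3 stood at 3.81 ± 0.928 and CXCR4 at 2.65 ± 0.653 CPM per kb (SD, n = 3 each), with ratios of 0.902, 1.96 and 1.67. In PC3 cells the values were 0.684 ± 0.199 and 0.574 ± 0.182 CPM per kb (SD, n = 3 each), with ratios of 2.12, 1.05 and 0.778. The CXCL12 receptor transcripts of vehicle-treated cells were therefore almost all ACKR3, while in the other 2 groups the ratio lay on both sides of 1.

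**Figure D2:**
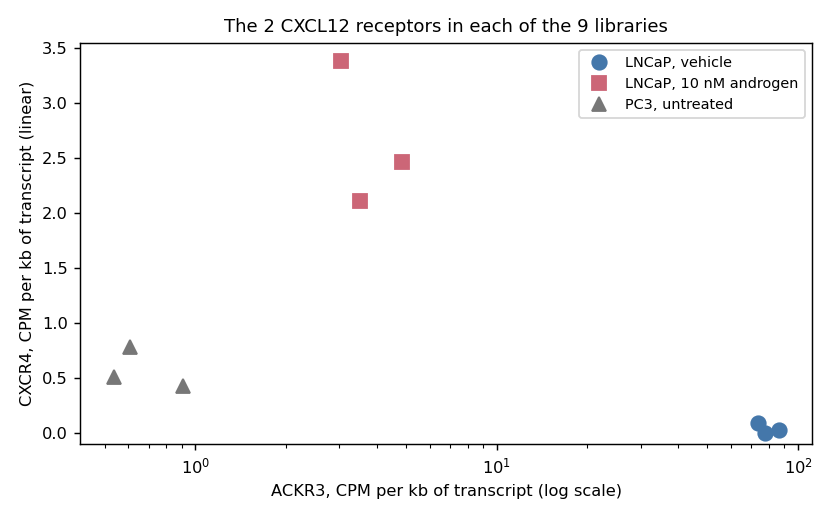
CXCR4 (vertical, linear) against ACKR3 (horizontal, log scale) in CPM per kb of transcript, with 1 point per library. Vehicle-treated LNCaP libraries lie at 73.5 to 86.1 for ACKR3 and near 0 for CXCR4, androgen-treated libraries at 3.05 to 4.84 and 2.11 to 3.38, and PC3 libraries at 0.536 to 0.910 and 0.430 to 0.779.

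CXCL12, the ligand shared by both receptors, was close to the limit of detection in all 3 groups. The gene lies at chr10:44370165-44386493 on the minus strand, with 3 exons and 1928 nt in its main transcript. PC3 libraries held 10, 13 and 9 CXCL12 counts, androgen-treated libraries 6, 1 and 2, and vehicle-treated libraries 2, 4 and 4. Every PC3 library lay above every LNCaP library, and the LNCaP groups overlapped. The gene did not reach the filter in any comparison. With androgen against vehicle, the ratio of summed counts was 0.840 (95% counting interval 0.302 to 2.30), which covers both directions.

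For PC3 against androgen-treated cells the CXCL12 ratio was 3.04 (95% counting interval 1.42 to 7.24), and against vehicle-treated cells 2.55 (95% counting interval 1.22 to 5.82). Fits without the filter gave log2 changes of 1.58 (SE 0.57, adjusted p = 0.0306 in edgeR's quasi-likelihood test) and 1.31 (SE 0.46, adjusted p = 0.0294 in edgeR). Neither call was stable. The Wald test of DESeq2 gave adjusted p = 0.0737 and 0.10, and each call was lost without several single libraries, with edgeR adjusted p-values of 0.0572 to 0.105 and 0.0524 to 0.108. For PC3 against androgen-treated cells these were PC3 replicates 1 and 2 and androgen-treated replicates 2 and 3, and for PC3 against vehicle-treated cells PC3 replicates 1 and 2 and vehicle-treated replicates 1 and 3. Without the filter, 42.9% of the genes fitted between PC3 and androgen-treated cells were called. CXCL12 in androgen-treated and vehicle-treated LNCaP libraries stood at 31.8% and 38.6% of its PC3 mean, on 1 to 6 and 2 to 4 counts per library. A part of carry-over from PC3 libraries in these counts was not tested.

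CXCL11, the second ligand of ACKR3, was found almost only in androgen-treated LNCaP cells. The gene lies at chr4:76033682-76041415 on the minus strand, with 4 exons and 1479 nt in its main transcript. Androgen-treated libraries held 90, 58 and 49 CXCL11 counts, or 4.16, 2.84 and 2.43 CPM. Vehicle-treated libraries held 1, 0 and 4 counts, and PC3 libraries 0, 1 and 1. Androgen-treated libraries did not overlap with the others, and the latter overlapped with each other. The level passed 3 CPM in only 1 library, so the gene did not reach the filter.

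With androgen, CXCL11 was higher by a ratio of 36.8 (95% counting interval 15.5 to 114) on 197 against 5 counts. The fitted log2 change without the filter was 5.09 (SE 0.43), and 6.60 without vehicle-treated replicate 3. Without the filter, 14.4% of the genes fitted between the LNCaP groups were called. In PC3 cells, CXCL11 was lower than in androgen-treated cells, by a log2 change of -6.58 without the filter (SE 0.50). No p-value is given, because the androgen-treated libraries took part in the selection and CXCL11 was high only there. Between PC3 and vehicle-treated cells no difference was detectable at this depth, with a log2 change of -1.48 (SE 1.23, adjusted p = 0.320 in edgeR without the filter, and 0.158 to 0.988 over its alternatives).

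Per kb of transcript in androgen-treated cells, CXCL11 (2.13 ± 0.610 CPM per kb, SD, n = 3) was about as abundant as CXCR4 (2.65 ± 0.653) and below ACKR3 (3.81 ± 0.928), and the range of CXCR4 overlapped with both others. CXCL11 spanned 1.65 to 2.81 CPM per kb, CXCR4 2.11 to 3.38 and ACKR3 3.05 to 4.84. CXCL12 in the same cells stood at 0.074 ± 0.062 CPM per kb. CXCR3, the other receptor of CXCL11, had 0 to 2 counts in every library.

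Sequence shared with other places in the genome was not found for the 4 genes. None of the 37-nt stretches laid end to end along their main transcripts was found elsewhere in the genome, with 54 stretches for ACKR3, 45 for CXCR4, 52 for CXCL12 and 39 for CXCL11. The kit marked strand, and CXCL11 had 0 reads on the opposite strand in every library, where ART3 overlaps it. The pseudogene RPL36P8 lies within the span of CXCL11 on the same strand and was not analysed here.

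Genes beside each of the 4 were taken by position after the values were known. Beside ACKR3, COPS8 had a log2 change of -0.28 with androgen (SE 0.04, adjusted p = 3.06e-05 in edgeR), and IQCA1 had 0 to 3 counts. COPS8 did not reach the fold change of 2 in any of the 3 comparisons. On one side of CXCR4, THSD7B had 0 to 1 counts. On one side of CXCL12, ZNF32 had 0.02 with androgen (adjusted p = 0.683 in edgeR), and on the other TMEM72 had 0 to 1 counts. ZNF32 was called lower in PC3 cells, at -1.15 against androgen-treated and -1.11 against vehicle-treated cells (adjusted p = 5.15e-06 and 8.98e-06 in edgeR).

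CXCL11 had a neighbour with the same order of groups. CXCL10, another chemokine that is induced by interferon and binds CXCR3, lies 10.2 kb from it on the same strand. Androgen-treated libraries held 85, 49 and 33 CXCL10 counts, vehicle-treated libraries 1, 4 and 0, and PC3 libraries 0, 0 and 1. The ratio with androgen was 31.2 (95% counting interval 13.1 to 97.3), and the log2 change without the filter was 4.84 (SE 0.50). No p-value is given, because CXCL10 was high only in the androgen-treated libraries and was taken after its values were known. NUP54, on the other side at 66.1 kb, had -0.82 with androgen (SE 0.05, adjusted p = 7.55e-09 in edgeR), in the opposite direction and under the fold change of 2. In PC3 cells NUP54 had -0.24 against androgen-treated and -1.04 against vehicle-treated cells (adjusted p = 0.156 and 0.000252 in edgeR), and the latter call was lost without PC3 replicate 3 (-0.918).

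Around the 4 genes, 130 genes of chemokine biology were taken as 6 lists by their roles. The lists hold chemokine receptors, chemokines, other ligands and partners, G proteins with arrestins and kinases that regulate receptors, genes of receptor sorting, and effectors of cell migration. With androgen, 53 of the 130 reached the filter and 3 were called, 1 higher and 2 lower, or 5.66% beside 14.0% of all genes. Their median log2 change was 0.12, beside -0.01 over all genes tested.

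The called genes were CXCL8, RGS3 and HMGB1. CXCL8, a chemokine that attracts neutrophils, had 90, 81 and 65 counts with androgen and 0, 0 and 1 with vehicle, a ratio of 220 (95% counting interval 39.1 to 8735). It reached the filter only through the androgen-treated libraries. RGS3, which speeds the shutdown of G protein signals, fell by 1.08 on the log2 scale (SE 0.08, adjusted p = 8.40e-08 in edgeR), and by 0.979, under the threshold, without androgen-treated replicate 1. HMGB1, a nuclear protein that forms a complex with CXCL12 outside the cell, fell by 1.07 (SE 0.04, adjusted p = 4.93e-11 in edgeR).

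Without the filter, 5 of 19 chemokines fitted were called, all higher with androgen (CXCL8, CXCL10, CCL2, CCL8 and CCL20), and 0 of 15 receptors, beside 14.4% of all genes. CCL8 and CCL20 rest on 7 and 13 counts in all. CCL2, a chemokine for monocytes, had 9, 7 and 5 counts with androgen and 0 with vehicle, at least 2.16-fold higher. In the same fit 3 of 11 other ligands and partners were called, all lower (HMGB1, CALCRL and ADM). Of 29 effectors of migration 4 were called, 2 higher and 2 lower. CALCRL and ADM are named because they were called, so their p-values are no separate support. CALCRL, a part of receptors for adrenomedullin, fell by 3.22 on the log2 scale (SE 0.40, adjusted p = 1.46e-07 in edgeR). ADM, which encodes adrenomedullin and whose peptide ACKR3 also takes up, fell by 1.71 (SE 0.32, adjusted p = 4.96e-05 in edgeR). CALCRL went from 25, 40 and 33 counts with vehicle to 3, 6 and 2 with androgen, and ADM from 32, 28 and 26 to 8, 12 and 8.

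Among G proteins, arrestins and receptor kinases, 16 of 23 genes were tested with androgen and 1 (RGS3) was called, or 6.25% beside 14.0% of all genes. GRK3, a receptor kinase, had a log2 change of -0.88 (adjusted p = 4.31e-08 in edgeR), under the fold change of 2. Without the filter 3 of 23 were called, 1 higher and 2 lower, beside 14.4% of all genes. The higher one was RGS2, at 1.42 (SE 0.23, adjusted p = 7.18e-06 in edgeR). The lower ones were RGS3 and GRK5, another receptor kinase, with -1.52 for GRK5 (SE 0.34, adjusted p = 0.000406 in edgeR). ARRB1 and ARRB2 encode the beta-arrestins that ACKR3 recruits, GNAI2 an inhibitory G protein subunit used by CXCR4, and GRK2 a kinase that phosphorylates active receptors. Their log2 changes with androgen were 0.51 for ARRB1 (adjusted p = 2.88e-06 in edgeR), 0.03 for ARRB2 (adjusted p = 0.639), -0.12 for GNAI2 (adjusted p = 0.0227) and 0.64 for GRK2 (adjusted p = 1.55e-08), all under the fold change of 2.

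Between PC3 and androgen-treated LNCaP cells, 64 of the 130 pathway genes reached the filter and 36 were called, of which PC3 cells had 23 higher and 13 lower. This was 56.3%, beside 46.0% of all genes, and the median log2 change was 0.26, beside 0.04. Against vehicle-treated cells 37 of 64 were called, 25 higher and 12 lower, or 57.8% beside 43.2% of all genes, with a median of 0.43 beside 0.03. Both shares lay near the background.

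In the chemokine list, 5 of 5 tested genes were called against either LNCaP group, 4 higher and 1 lower. The shares over all genes were 46.0% and 43.2%. CXCL1, CXCL5, CXCL6 and CXCL8, which act on CXCR1 and CXCR2, were higher in PC3 cells. They reached the filter only through PC3 libraries, except CXCL8 in the comparison with androgen-treated cells, so the filter favoured their calls and direction. Without the filter, 15 of 24 chemokines fitted against androgen-treated cells were called, 10 higher and 5 lower (CXCL10, CCL8, CCL20, CXCL16 and CCL2), beside 42.9% of all genes. Against vehicle-treated cells 12 of 19 were called, 11 higher and 1 lower, beside 41.0%. CXCL1 had 331, 430 and 215 counts in PC3 libraries, 3, 0 and 0 in androgen-treated and 0 in vehicle-treated libraries, at least 88-fold higher than the latter. CXCL5 had 98, 95 and 77 counts in PC3 cells and 0 in every LNCaP library, at least 25.8-fold above androgen-treated and 24.1-fold above vehicle-treated cells. CXCL8 had 678, 536 and 306 counts in PC3 cells, a log2 change of 2.46 against androgen-treated cells (SE 0.31, adjusted p = 0.000122 in edgeR). CXCL16, a chemokine that is also made as a membrane protein, was lower in PC3 cells, where 121 to 141 counts stood against 861 to 1041 in LNCaP cells, at log2 changes of -3.11 and -3.12 (adjusted p = 7.84e-08 and 9.48e-08 in edgeR).

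Of 21 other chemokine receptors, only CCRL2, an atypical receptor that holds chemerin, reached the filter. It had 146, 91 and 111 counts in PC3 libraries, 2, 1 and 1 in androgen-treated and 0 in vehicle-treated libraries, and was at least 30.7-fold above the latter. Its log2 change against androgen-treated cells was 6.08 (SE 0.34). It reached the filter only through PC3 libraries, which favoured a difference, so no p-value is given.

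Partners of the pathway were called in 3 of 6 cases against either LNCaP group, or 50%, beside 46.0% and 43.2% of all genes. DPP4, a surface peptidase that inactivates CXCL12 and CXCL11, was higher in PC3 cells, with 187 ± 13.3 CPM (SD, n = 3) and log2 changes of 3.73 and 4.66 (SE 0.12 in both, adjusted p = 6.25e-08 and 2.76e-08 in edgeR). EGFR, a growth factor receptor, was also higher, with 1.78 and 2.22. MIF, a cytokine that binds both CXCR4 and ACKR3, was lower, with -1.26 and -1.16. MIF was abundant throughout, with 288 ± 1.85 CPM (SD, n = 3) in PC3, 686 ± 30.2 in androgen-treated and 634 ± 19.2 in vehicle-treated cells, far above CXCL12 and CXCL11.

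Among G proteins, arrestins and receptor kinases 11 of 20 genes were called against either group, 7 higher and 4 lower. This was 55%, beside 46.0% and 43.2% of all genes. GNG2, a gamma subunit of G proteins, and RGS2, an inhibitor of G protein signals, were higher in PC3 cells by log2 changes of 8.56 and 6.72 against androgen-treated cells (SE 0.41 and 0.34). GRK3, a kinase that phosphorylates active receptors, had a log2 change of -6.51 (SE 0.34), on 347 to 654 counts in LNCaP and 1 to 10 in PC3 libraries. GNG2 and RGS2 reached the filter only through PC3 libraries and GRK3 only through LNCaP libraries. The filter thus favoured a difference, and they get no p-value. GNAI2 was higher by 2.82 (SE 0.07, adjusted p = 2.49e-08 in edgeR), and ARRB1 had -0.87, under the fold change of 2, and -1.03, which was called, without PC3 replicate 2.

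Of the sorting list, 0 of 10 were called against androgen-treated and 2 of 10 against vehicle-treated cells, beside 46.0% and 43.2% of all genes. The 2 were STAM2 and HGS, parts of the complex that sorts CXCR4 to the lysosome, with log2 changes of 1.41 and 1.02 (adjusted p = 9.18e-07 and 2.60e-06 in edgeR). HGS fell under the fold change of 2 without PC3 replicate 3 (0.944) or vehicle-treated replicate 2 (0.993), with counts of both strands (0.978) and with all 9 libraries in one fit (0.997). Of the effectors of migration, 16 of 22 were called against androgen-treated cells (9 higher, 7 lower), or 72.7% beside 46.0% of all genes. Against vehicle-treated cells 15 of 22 were called (9 higher, 6 lower), or 68.2% beside 43.2% of all genes. TIAM1, PREX1 and RAC2, which activate or belong to the Rac GTPases, were higher in PC3 cells. PREX1 had log2 changes of 8.02 and 7.78 (SE 0.38 and 0.33). STAT3, a transcription factor downstream of many cytokine receptors, was nearly absent from PC3 cells (1 to 3 counts, against 3418 to 7343 in LNCaP cells), at log2 changes of -12.11 and -11.34. TIAM1, PREX1 and RAC2 reached the filter only through PC3 libraries and STAT3 only through LNCaP libraries. The filter thus favoured a difference, and they get no p-value.

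**Figure D3:**
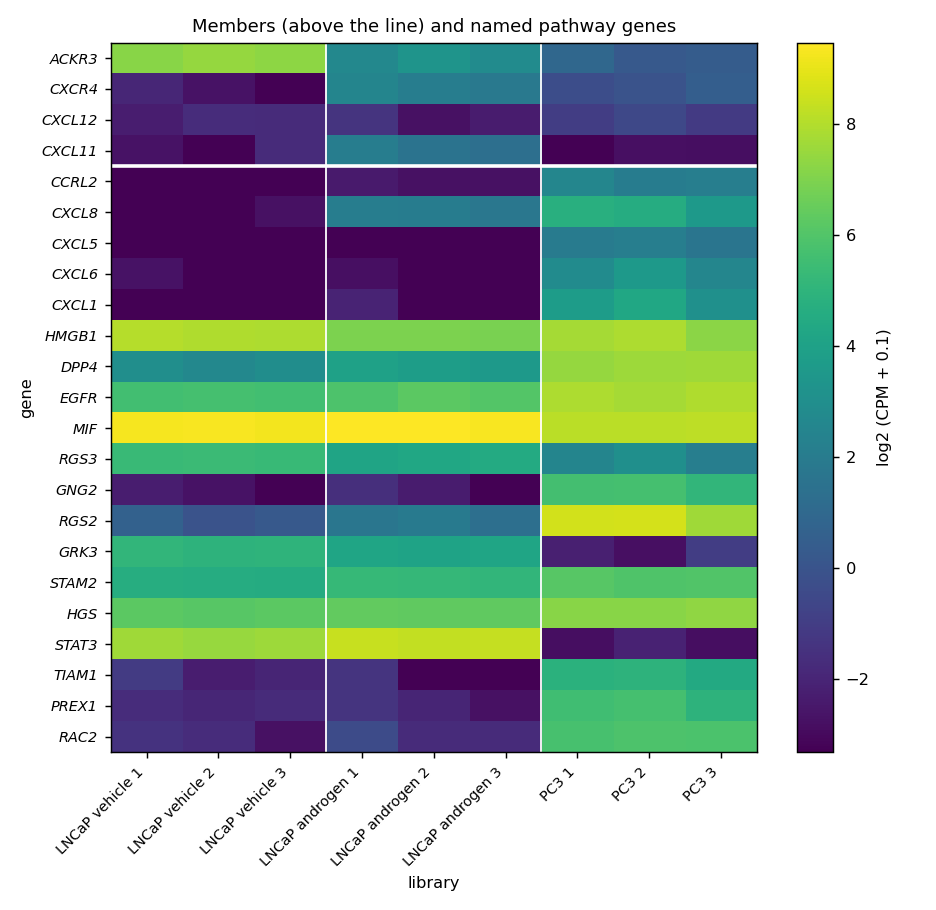
Level of the 4 genes (above the white line) and of 19 pathway genes as log2 (CPM + 0.1), with 1 column per library and 1 row per gene. ACKR3 is bright in vehicle-treated LNCaP columns, CXCR4 and CXCL11 in androgen-treated columns, and CXCL1, CXCL5, CXCL6 and CCRL2 in PC3 columns, where STAT3 and GRK3 are dark.

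The genes most like ACKR3 and CXCR4 were sought by the root mean square difference of log2 CPM, centred on each gene's mean over the 9 libraries, among 12843 genes. For ACKR3 these were TGM3 (0.367), VWA2 (0.382), OPRK1 (0.388), BCHE (0.477) and GRIK1 (0.511). All 5 were lower with androgen, with log2 changes of -5.37, -4.22, -4.10, -5.05 and -3.65, and all were lowest in PC3 cells. TGM3, VWA2, OPRK1 and GRIK1 had 0 counts in PC3 cells, so their likeness there depends on the prior count of 2. For CXCR4 the nearest were REP15 (0.478), NDRG1 (0.590), WIPI1 (0.629), PTGER4 (0.696) and ELL2 (0.708). These 5 were highest in androgen-treated, intermediate in PC3 and lowest in vehicle-treated cells, and NDRG1, for example, had means of 1684, 276 and 59.4 CPM. These genes were picked by likeness over the same 9 libraries, so their shared direction and order of groups follow from the choice and are no finding. The points share libraries and depth, and the values are a description of 9 libraries in 3 groups.

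**Figure D4:**
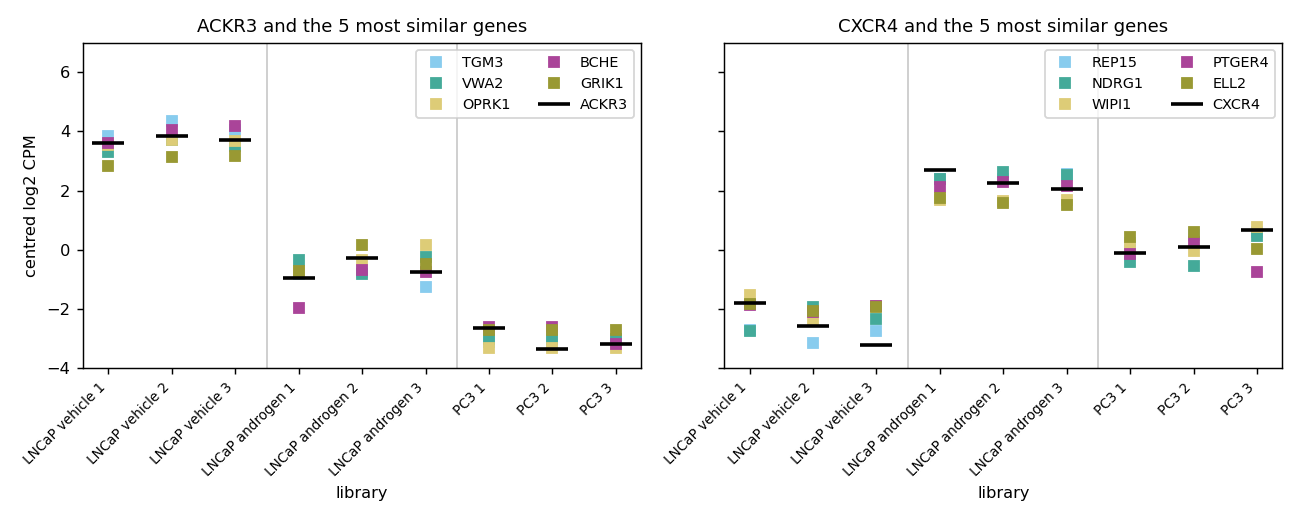
Centred log2 CPM in each of the 9 libraries for ACKR3 (left) and CXCR4 (right), drawn as black bars, and for the 5 genes most like each, drawn as squares. ACKR3 and its nearest genes step down from vehicle-treated to androgen-treated LNCaP to PC3 cells, and CXCR4 and its nearest genes are high with androgen, low with vehicle and between in PC3 cells.

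The 4 leukocyte markers summed to at most 0.518 CPM in any library. The 6 markers of fibroblasts and endothelium summed to 37.0 to 45.9 CPM in PC3, 19.4 to 23.1 in androgen-treated and 37.9 to 40.8 in vehicle-treated libraries. Of these 6 markers 1 or 2 exceeded 3 CPM in each library, led by COL1A1, and CDH5 had 0 counts in all 9. The part of such cells in the levels of CXCL12, CXCR4 or CXCL11 was not tested. Androgen-treated replicate 1, which held the highest level of PC3 markers among LNCaP libraries, also held the most CXCR4 and CXCL11 counts, and without it their log2 changes with androgen were 5.65 and 4.84.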

How the data were processed

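Poly(A)-enriched RNA of PC3 cells and of LNCaP cells was sequenced in 3 groups of 3 libraries. Before deposit, the authors removed adapters, mapped reads to GRCh38 using STAR, collapsed PCR duplicates by molecular identifier and summed reads per gene. The submitters' processing notes name cutadapt 4.1, STAR 2.7.7a and UMI-tools 1.1.2. The deposited counts are whole numbers per gene and library, without normalization, and all 253944 values of the table equal STAR's forward-strand counts. On the reverse strand lay 2.33% to 3.06% of the reads on genes, and 20.3% to 25.4% of the reads were counted on no gene and left out. All library columns were used (0 left out).

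Genes with more than 3 CPM in at least 3 libraries of a fit were kept, as in the study. TMM factors were taken from edgeR 4.0.16 under R 4.3.3, followed by the quasi-likelihood F test with Benjamini-Hochberg adjustment over all genes tested, in 3 comparisons of 6 libraries each. In the study the likelihood ratio test of edgeR was used and batch was a model term. The batches are not named in its text, so the term was left out. Genes under the filter got ratios of summed counts with exact conditional 95% intervals, and a fit without the filter. A fold against a group with 0 counts is a lower bound against 3 counts per library. Positions and main transcripts are those of GENCODE 44, and promoters those of RefSeq on GRCh38.p14, where 3 of the 4 genes were matched. The tests were tested on simulated data.

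The 4 genes and all lists were chosen with earlier results of these data known. Named were the 4 genes, in each list and comparison up to 3 called genes with the largest fold change, the 5 genes nearest to ACKR3 and to CXCR4, and the markers. Every other gene was chosen after its values were seen: the neighbours by position, CXCR3, CXCL16, ARRB1, ARRB2, GNAI2, GRK2, GRK3 with androgen, and the pathway genes called only without the filter. A neighbouring gene and a marker are not reported here.

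Replicates of a group differed by more than sampling noise, with a chi-square per gene of 2.26 to 54.5. LNCaP libraries of the same replicate number deviated together from their group means, with correlations over 11697 genes of 0.194, 0.217 and 0.200, against -0.220 to 0.017 for different numbers. The numbers may therefore pair these libraries, on the evidence of the counts alone. The main fits hold no term for this, so their standard errors and p-values ignore any pairing, and the replicate block is an alternative. Alternatives were DESeq2 1.42.0 size factors, its Wald test, a replicate block, the likelihood ratio test of edgeR, no filter, unstranded counts, all 9 libraries in one fit, and leaving out each library in turn on the genes of the full fit. The same alternatives without the filter were added after seeing the data.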

Additional observations from a re-analysis of the deposited data

How the results depend on the processing

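Across the alternatives, ACKR3 kept its direction, with log2 fold changes of -4.63 to -4.25 for androgen against vehicle, -2.75 to -2.26 for PC3 against androgen-treated cells and -7.14 to -6.73 for PC3 against vehicle-treated cells. CXCR4 lay at -2.52 to -2.0 for PC3 against androgen-treated cells, where no test is reported. For PC3 against vehicle-treated cells it lay at 3.10 to 4.93 without the filter and was called throughout. With each library left out in turn, CXCR4 with androgen lay between 5.29 and 7.09, and CXCL11 with androgen between 4.57 and 6.60. CXCL12 with androgen lay between -1.15 and 0.13, a change of sign without androgen-treated replicate 2, and CXCL11 for PC3 against vehicle-treated cells between -2.01 and 0.0324, a change of sign without vehicle-treated replicate 3. For CXCL12 in PC3 cells the range was 1.19 to 2.49 against androgen-treated and 1.06 to 1.49 against vehicle-treated cells. The DESeq2 Wald test gave 1.62 and 1.35 there (adjusted p = 0.0737 and 0.10). The cause of these shifts was not tested, beyond the few counts of CXCL12 and CXCL11.

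With the replicate number as a block, CXCL12 had 1.60 (adjusted p = 0.0625 in edgeR) against androgen-treated and 1.32 (adjusted p = 0.0661 in edgeR) against vehicle-treated cells, both no longer called. With the block, ACKR3 had log2 fold changes of -4.41, -2.46 and -6.86, given as a description without a call. CXCR4 had 5.85 and -2.20, and 3.67 without the filter for PC3 against vehicle-treated cells, likewise without a call. Of the pathway genes 3, 36 and 37 were called, as without the block. For PC3 and LNCaP libraries, same-number correlations were -0.092 to 0.033, so these share only a number.

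Without the filter more genes were tested, and 15 pathway genes were called with androgen in place of 3, and 55 in place of 36 for PC3 against androgen-treated cells. With all 9 libraries in one fit, 5 were called with androgen. Over all genes, 2941, 9147 and 8713 were called without the filter in place of 1641, 5773 and 5485. Small changes turned sign without 1 library for CXCL16 (range -0.0762 to 0.0078), ARRB2 (-0.0166 to 0.0827, with -0.0166 and -0.0110 below 0) and ZNF32 (-0.0150 to 0.0737) with androgen. Depth limits the comparisons that rest on few counts: CXCL12 in all groups, and CXCR4 and CXCL11 in vehicle-treated cells.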
